A study of Mus musculus with 15 samples.

Results

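The genes of the replicative DNA polymerases, primase and GINS were followed across 4 groups of sorted mouse bone marrow cells: stem cells and myeloid progenitors, each from young and from old animals. The 10 genes were Pola1, Pola2, Prim1, Prim2, Pold1, Pold2, Pole, Pole2, Gins1 and Gins2, taken by name and not by any measured value, and all 10 were found among the 19296 genes measured. Each was read by 1 probe set of the array, annotated with that gene symbol only. The study carried 15 arrays of C57Bl/6 cells, all labelled male: 3 of old haematopoietic stem cells (HSC), 5 of young HSC, 3 of old granulocyte/macrophage progenitors (GMP) and 4 of young GMP. Young mice were 6 to 12 weeks of age and old mice 22 to 30 months, and the labels name no transgene, deletion or drug for any group. HSC were sorted as cells without lineage markers, Flk2 and CD48 but with c-Kit, Sca-1 and CD150; GMP, which give rise to granulocytes and macrophages, as lineage-negative, Sca-1-negative cells with c-Kit, CD34 and Fc gamma receptor. Both populations were double-sorted. Whether an array stands for 1 mouse or a pool is not given in the sources used here, so p-values measure the spread between arrays, which may be technical.

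Copying of a chromosome starts when the CMG helicase, made of Cdc45, the MCM ring and the GINS complex, opens the double helix. DNA polymerase alpha, bound to primase, lays down a short RNA-DNA primer, after which DNA polymerase epsilon extends the leading strand and DNA polymerase delta the lagging strand. Genes of this machinery are transcribed mainly as cells enter S phase, many of them under E2F transcription factors, and most HSC of an adult mouse rest outside the cell cycle while GMP divide often. In sorted bulk samples, fewer cycling cells and less RNA per cell cannot be told apart.

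Promoters are shown for 5 of the genes to let the reader compare the sequence before the gene starts of members that fell in old HSC (Prim1, Pole2, Pola2) and members that did not pass the test there (Pola1, Pold1). RefSeq promoter entries, from 250 bases before to 50 after the gene start on build GRCm38.p6, were matched for 6 of the 10 genes. Each sequence runs 5′ to 3′ on the strand of its gene, and capitals mark matches, on either strand, to the E2F-type words TTTCCCGC, TTTCGCGC, TTTGCCGC, TTTGGCGC and TTCCCGCC or to the CCAAT box; the words TTTCCCGC and TTCCCGCC can overlap each other.
Prim1 (GRCm38.p6, chr10:128014965-128015264, plus strand): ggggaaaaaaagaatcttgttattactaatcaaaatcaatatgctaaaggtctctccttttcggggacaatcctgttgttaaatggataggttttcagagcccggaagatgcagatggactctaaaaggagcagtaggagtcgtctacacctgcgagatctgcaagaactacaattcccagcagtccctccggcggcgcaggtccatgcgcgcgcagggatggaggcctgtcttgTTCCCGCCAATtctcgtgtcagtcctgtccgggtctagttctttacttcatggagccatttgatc
Pole2 (GRCm38.p6, chr12:69228141-69228440, minus strand): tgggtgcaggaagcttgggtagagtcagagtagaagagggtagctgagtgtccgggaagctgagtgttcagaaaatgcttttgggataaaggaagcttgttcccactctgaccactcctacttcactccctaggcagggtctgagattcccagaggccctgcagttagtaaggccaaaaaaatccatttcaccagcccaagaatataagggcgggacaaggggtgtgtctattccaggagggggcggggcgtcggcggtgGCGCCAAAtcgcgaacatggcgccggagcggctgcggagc
Pola2 (GRCm38.p6, chr19:5964157-5964456, minus strand): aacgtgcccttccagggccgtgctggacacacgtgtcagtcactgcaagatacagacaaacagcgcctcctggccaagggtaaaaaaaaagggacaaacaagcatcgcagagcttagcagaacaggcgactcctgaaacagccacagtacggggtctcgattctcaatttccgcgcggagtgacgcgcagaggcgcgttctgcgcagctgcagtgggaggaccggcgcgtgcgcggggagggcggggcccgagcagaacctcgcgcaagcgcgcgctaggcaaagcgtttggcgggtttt
Pola1 (GRCm38.p6, chrX:93632106-93632405, minus strand): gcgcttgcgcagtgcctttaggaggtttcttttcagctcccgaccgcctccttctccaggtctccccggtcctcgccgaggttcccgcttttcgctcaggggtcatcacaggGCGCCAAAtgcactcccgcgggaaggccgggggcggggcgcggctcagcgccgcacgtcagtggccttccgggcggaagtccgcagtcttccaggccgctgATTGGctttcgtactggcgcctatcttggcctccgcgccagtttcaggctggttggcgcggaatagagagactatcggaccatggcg
Pold1 (GRCm38.p6, chr7:44548766-44549065, minus strand): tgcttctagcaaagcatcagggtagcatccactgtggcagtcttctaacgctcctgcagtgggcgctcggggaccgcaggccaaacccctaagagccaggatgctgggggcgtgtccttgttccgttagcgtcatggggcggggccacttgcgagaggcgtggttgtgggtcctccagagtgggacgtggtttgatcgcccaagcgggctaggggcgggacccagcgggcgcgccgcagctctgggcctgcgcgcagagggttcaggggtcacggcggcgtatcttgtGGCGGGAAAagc
One of the first 4 words was present in 3 of the 6 genes, Pola1, Pold1 and Pole2, against 2.26% of the 32817 promoters in the table, and TTCCCGCC in 2 of the 6, Prim1 and Pold1, against 2.19%. Counted from 1 at the 5′ end, the match in Prim1 began at base 236 of the 300 and overlapped a CCAAT box that began at base 242, while those in Pole2 and Pold1 began after the gene start, at bases 261 and 289. CCAAT was found in 3 of 6, Pola1, Prim1 and Pold2, against 37.4% of all promoters. Pola2 held none of these exact words. Pold2, which also fell in old HSC and is not printed here, held no E2F-type word in any of its promoter entries. Other spellings of an E2F-type site were not searched. These are matches of letters, and the words were present both in genes that fell in old HSC and in genes that did not pass the test.

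Before the comparisons, the sorted cells were checked against marker genes. All 7 measured HSC markers were higher in HSC and all 8 GMP markers higher in GMP at both ages, with the granule enzyme gene Mpo between 13.05 and 13.32 log2 on GMP arrays and between 6.40 and 7.29 on HSC arrays. With age in HSC, 0 of the 7 HSC markers and 0 of the 8 GMP markers passed the test (limma). Of the lists for other cells, 1 of 5 erythroid markers rose in old HSC, 1 of 7 T and NK cell markers rose and 1 fell, 1 of 5 endothelial markers fell, and 0 passed among those of B cells, mast cells and basophils, neutrophils, macrophages and dendritic cells, and megakaryocytes. Array medians lay between 7.25 and 7.42 log2, but the interquartile range, the spread of values within an array, was 1.96 to 2.33 in old HSC, 2.21 to 2.69 in young HSC, 2.27 to 2.48 in old GMP and 2.13 to 2.60 in young GMP. Xist, which is transcribed from the silenced X chromosome of female cells, ranged from 5.46 to 5.84 log2 over the 6 old arrays. Over the young ones it ran from 4.72 to 11.51. Replicate 1 of each young group was low, at 4.72 in HSC and 5.49 in GMP, and all other young arrays read 8.92 or more. These high values go against the male label of those samples. The mean of Y-linked genes was 8.45 to 8.803 log2 on the old arrays. Among the young arrays with high Xist, it was 8.473 and 8.421 in HSC replicates 3 and 5 and 8.275 in GMP replicate 3. In HSC and GMP it was 7.12 and 7.199 for replicate 2, and 4.936 and 5.199 for replicate 4. Xist alone therefore does not give the sex of these arrays. High Xist values occurred on young arrays only, in both cell types. The parts of sex and age in the age differences therefore cannot be told apart.

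All 10 genes had the same broad order of group means on the deposited scale. Mean log2 values were lowest in old HSC, next in young HSC, and highest in the GMP groups, for each of the 10 genes. Young GMP stood first for 6 genes (Pola2, Prim1, Pold1, Pold2, Pole2, Gins1) and old GMP for 4 (Pola1, Prim2, Pole, Gins2). The GMP groups overlapped for all 10 genes, so that their order is within the spread of arrays; 6.83% of all genes had young and old GMP arrays fully apart. Old and young HSC arrays overlapped for Pola1, Prim2, Pold1 and Gins2. After quantile normalization the difference of old minus young HSC was 0.13 for Pola1 and -0.01 for Gins2. How many of all genes share this order was not counted. Values of one gene are not set against those of another, because probes differ in brightness.

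**Figure D1:**
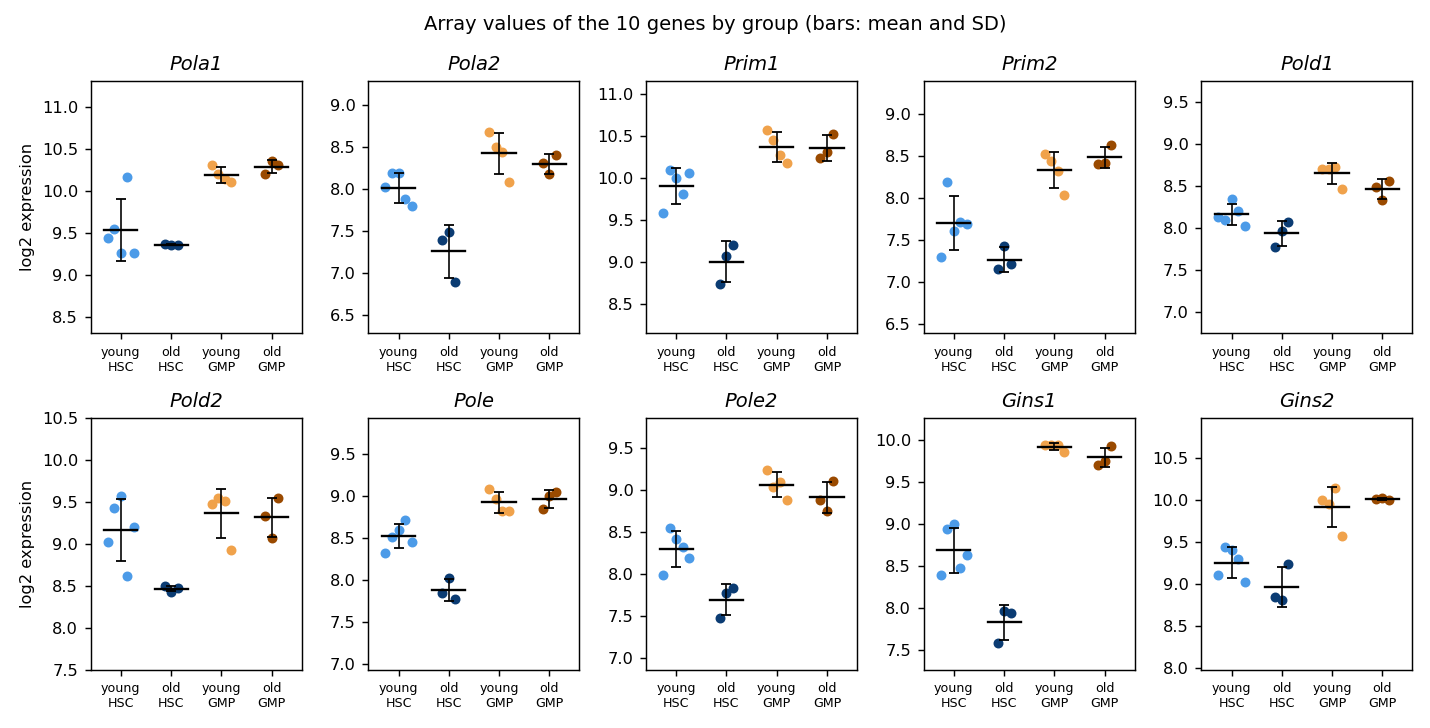
Log2 expression (vertical axis, each panel spanning the same number of log2 units) of the 10 genes on every array, by group on the horizontal axis; points are arrays, bars the group mean and SD. Old HSC arrays lie below all young HSC arrays for Pola2, Prim1, Pold2, Pole, Pole2 and Gins1, and the young and old GMP arrays overlap in all 10 panels.

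The first comparison asked what age did to these genes in HSC. Of the 10 genes, 6 fell in old HSC and 0 rose: Prim1 by 1.87-fold, Gins1 by 1.81-fold, Pola2 by 1.69-fold, Pold2 by 1.62-fold, Pole by 1.56-fold and Pole2 by 1.52-fold (n = 3 old and 5 young arrays). The other 4, Pola1, Prim2, Pold1 and Gins2, had differences that did not pass the test, although all 10 differences were below 0, as were 46.6% of those of all genes. Each complex had a member that fell: primase, polymerases alpha, delta and epsilon, and GINS. A gene passed at a limma p under 0.05 after Benjamini-Hochberg adjustment over all 19296 genes, and 9.22% of all genes passed as lower and 2.25% as higher in old HSC. That lower share rested on single arrays: it was 1.92% without old HSC replicate 1 (4 of the 10 members called), 1.44% without old HSC replicate 2 (5), 4.02% and 4.09% without young HSC replicate 2 or 3 (5 each), 5.83% without young HSC replicate 5 (6) and 17.9% without young HSC replicate 4 (6). The median log2 difference of the 10 genes was -0.62, beside 0.03 over all genes and -0.24 over the 5472 other genes whose mean level lay within the range of the 10 members, of which 19.8% were called lower. After quantile normalization these medians were -0.48 for the 10 genes and -0.02 for the other genes of the same brightness.

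Prim1, the catalytic subunit of primase that makes the RNA primer, had the largest difference of the 10 on the deposited scale; after quantile normalization Gins1 (-0.74) and Pola2 (-0.73) were ahead of it (-0.63). Its log2 values were 8.73, 9.07 and 9.20 on the old HSC arrays and 9.58, 10.09, 10, 9.80 and 10.06 on the young ones. Every old array lay below every young array. The log2 difference was -0.91 ± 0.14 (SE; 95% CI -1.20 to -0.61; limma adjusted p = 0.00193). Prim2, the larger primase subunit, which helps hand the primer to polymerase alpha, read 7.15, 7.43 and 7.21 in old HSC and 7.30, 8.19, 7.60, 7.71 and 7.69 in young HSC. Young replicate 1 lay below old replicate 2, so the groups overlapped. Its difference of -0.43 ± 0.16 (95% CI -0.76 to -0.10) had an unadjusted p of 0.0137 but an adjusted p of 0.08.

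Pola2, the accessory subunit of polymerase alpha, read 7.40, 7.49 and 6.90 in old HSC and 8.03, 8.19, 8.19, 7.88 and 7.80 in young HSC. The groups did not overlap, and old replicate 3 was the lowest by a wide margin. The log2 difference was -0.76 ± 0.15 (limma adjusted p = 0.0064), and it was -0.58 without old HSC replicate 3, with an adjusted p of 0.019. Pola1, the catalytic subunit of the same enzyme, read 9.36, 9.35 and 9.35 in old HSC and 9.44, 9.54, 9.26, 10.16 and 9.26 in young HSC. Young replicates 3 and 5 lay below all old arrays and young replicate 4 far above the rest. The difference was -0.18 ± 0.16 (95% CI -0.51 to 0.14; adjusted p = 0.427), and after quantile normalization it was 0.13. Pola1 lies on the X chromosome. The array with its highest HSC value, young replicate 4, also had the highest Xist value of the 15 arrays, 11.51, and the lowest mean of Y-linked genes, 4.94, whereas young replicates 3 and 5, with Xist at 10.02 and 10.26, had the lowest Pola1 values of their group. The part of sex-linked RNA in the Pola1 values was not tested beyond a fit with Xist as a covariate, in which the difference was -0.12.

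Pole, the catalytic subunit of the leading-strand polymerase, read 7.85, 8.03 and 7.78 in old HSC and 8.33, 8.52, 8.60, 8.72 and 8.46 in young HSC. Old and young arrays were fully apart. The log2 difference of -0.64 ± 0.11 (limma adjusted p = 0.00361) passed the test under each of the 26 alternative settings, where it ran from -0.71 to -0.51. Some of these settings cannot move the difference from -0.64. Among them are the choices of probe set, as Pole has 1, and the fits without a GMP array. Pole2, the accessory subunit whose yeast counterpart ties polymerase epsilon to the helicase, read 7.48, 7.77 and 7.83 in old HSC against 7.99, 8.55, 8.42, 8.32 and 8.19 in young HSC. Here too the groups were apart, with young replicate 1 nearest to the old arrays. The difference was -0.60 ± 0.14 (adjusted p = 0.0124), and it did not pass without old HSC replicate 1 (-0.50, adjusted p = 0.0827).

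Pold2, an accessory subunit of the lagging-strand polymerase, read 8.50, 8.43 and 8.47 in old HSC and 9.02, 9.42, 9.57, 8.61 and 9.20 in young HSC. The old arrays were tightly grouped, and young replicate 4 lay just above them, far from the other young arrays. The difference was -0.70 ± 0.18 (limma adjusted p = 0.0232). Of the 6 calls it was lost under the most alternatives: it did not pass with the interquartile range of the arrays in the fit (-0.28, adjusted p = 0.648), after quantile normalization (-0.45, adjusted p = 0.0667), or without old HSC replicate 1 (0.0798), old HSC replicate 2 (0.106), young HSC replicate 2 (0.0597) or young HSC replicate 3 (0.0626). Pold1, the catalytic subunit with the proofreading activity of polymerase delta, read 7.77, 7.97 and 8.07 in old HSC and 8.13, 8.10, 8.35, 8.20 and 8.03 in young HSC. Only old replicate 3 and young replicate 5 crossed over. Its difference of -0.23 ± 0.11 (95% CI -0.46 to 0.01) had an adjusted p of 0.174.

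Gins1, also known as Psf1, is a subunit of the GINS complex in the active helicase. It read 7.58, 7.96 and 7.93 in old HSC and 8.39, 8.93, 8.99, 8.47 and 8.63 in young HSC. No old array reached a young one, and the log2 difference was -0.86 ± 0.14 (95% CI -1.15 to -0.57; limma adjusted p = 0.00207). Gins2, or Psf2, another subunit of the same ring-shaped complex, read 8.84, 8.81 and 9.23 in old HSC and 9.10, 9.44, 9.40, 9.29 and 9.02 in young HSC. Old replicate 3 lay above young replicates 1 and 5. The difference was -0.29 ± 0.14 (95% CI -0.58 to 0.00; adjusted p = 0.164), and -0.01 after quantile normalization.

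In 6 of the 10 genes the old and young HSC arrays did not overlap, all with old lower; the same held for 7.69% of all genes. These were the 6 that passed the test. The calls depended on how the spread of the arrays was treated. After quantile normalization, which gives every array the same distribution, 5 of the 6 passed, all but Pold2, beside 3.87% of all genes called lower. With each array's interquartile range entered as a covariate 1 of the 10 passed, Pole, beside 0.264% of all genes called lower, while Prim1 and Gins1 stood at -0.75 and -0.75 with an adjusted p of 0.0607 each. The 3 old HSC arrays had a narrower spread than 4 of the 5 young ones, and the parts of spread and age in these differences cannot be told apart. With Xist as a covariate the 6 called genes still passed, beside 10.5% of all genes called lower.

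**Figure D2:**
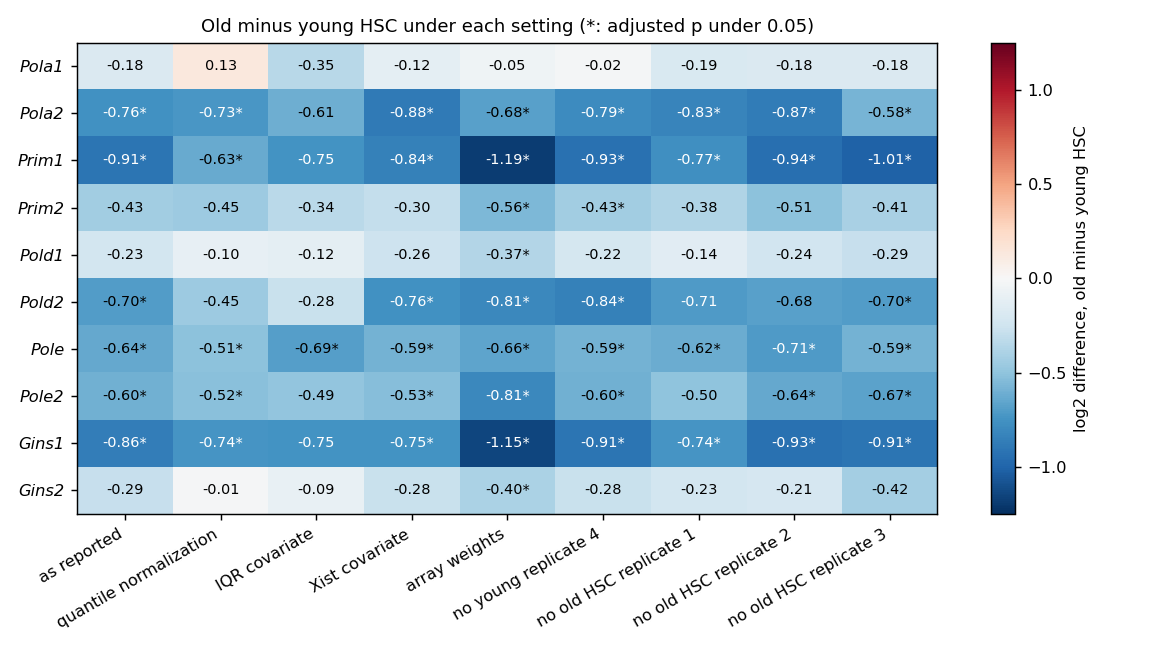
Log2 difference of old minus young HSC for each gene (rows) as reported and under 8 other settings (columns); the number and colour give the difference and an asterisk an adjusted p under 0.05. Pole keeps its asterisk in each column, Pold2 loses it in 4, and Pola1 turns from -0.18 to 0.13 after quantile normalization.

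Since partner subunits work in fixed complexes, their values were also set against each other on the same array. For Gins1 against Gins2 the within-array log2 difference averaged -1.14 ± 0.25 over the 3 old HSC arrays and -0.57 ± 0.19 over the 5 young ones (SD), a shift of -0.57. Old arrays ran from -1.30 to -0.84 and young arrays from -0.82 to -0.39, without overlap (two-sided exact permutation p = 0.0357, adjusted p = 0.119 over the 10 pair comparisons made). The shift was -0.58 for Pola2 against Pola1 (exact p = 0.107), -0.47 for Prim1 against Prim2 (exact p = 0.0714), -0.47 for Pold2 against Pold1 (exact p = 0.107) and -0.04 for Pole against Pole2 (exact p = 0.786). After adjustment 0 of these 5 pairs passed. The shifts are on the deposited scale, and their size depended on the normalization. After quantile normalization the age differences in HSC were -0.63 for Prim1 and -0.45 for Prim2, and -0.73 for Pola2 and 0.13 for Pola1. They were -0.45 for Pold2 and -0.10 for Pold1, -0.51 for Pole and -0.52 for Pole2, and -0.74 for Gins1 and -0.01 for Gins2. A single arrangement of 3 and 5 arrays has a share of 0.0179, and the two-sided test counts both ends. The p of 0.0357 for Gins1 against Gins2, with groups fully apart, is thus the smallest it can give. A single pair at that value cannot pass after adjustment over the 10 comparisons. Whether partner subunits fell unequally could therefore not be decided with these arrays. The pairs were formed by complex after the values had been seen.

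In this comparison 9.22% of all genes were called lower, and 19.8% of the other genes within the members' range of mean level. The remaining subunits of the same complexes were read alongside. Of 6 such genes, 4 fell in old HSC and 0 rose: Pold4, the small subunit of polymerase delta, by 1.74-fold (log2 -0.80 ± 0.20), Pole4 of polymerase epsilon by 1.67-fold (-0.74 ± 0.17), Gins4 by 1.58-fold (-0.66 ± 0.14) and Pold3 by 1.57-fold (-0.65 ± 0.14). Pole3, a histone-fold partner of Pole4, had a difference of -0.23 ± 0.11 and did not pass the test (adjusted p = 0.174), although its 3 old arrays, at 10.16 to 10.24, lay below the young ones, at 10.30 to 10.62. Gins3 had -0.13 ± 0.13 (adjusted p = 0.492). In GINS, then, Gins1 and Gins4 fell and Gins2 and Gins3 did not pass. Young HSC replicate 4 was the lowest young array for Pold4, at 8.32, and for Pole4, at 9.37, and the groups overlapped for Pold4. The number of these genes called was 1 without old HSC replicate 1 and 0 without old HSC replicate 2, beside 1.92% and 1.44% of all genes called lower.

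**Figure D3:**
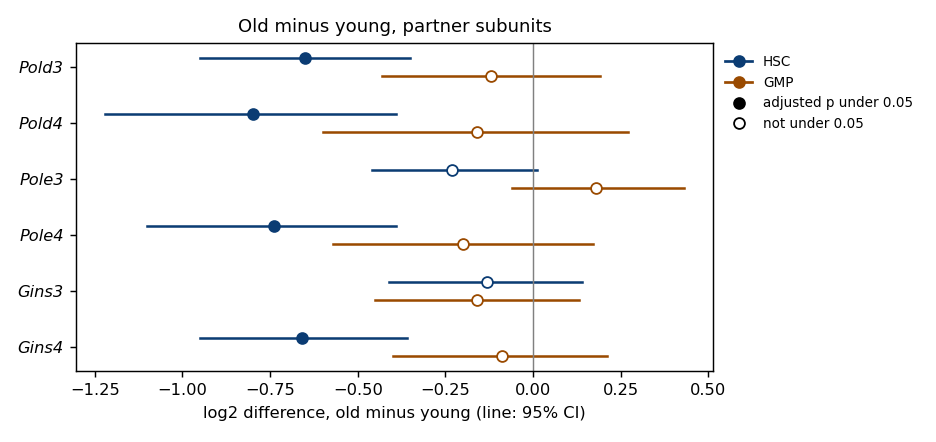
Log2 difference of old minus young (horizontal axis, lines are 95% confidence intervals) for the 6 partner subunits in HSC and in GMP; filled points have an adjusted p under 0.05. Pold3, Pold4, Pole4 and Gins4 are filled in HSC, and no gene is filled in GMP.

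Beyond these complexes other lists were read, beside the 9.22% of all genes called lower in old HSC. Within the members' range of mean level 19.8% of the other genes were called lower, and the lists were not matched on level. Of 19 genes of the CMG helicase and fork assembly, 11 fell (median log2 difference -0.49). They were led by Tipin, whose product stabilises stalled forks, 1.87-fold, and by the helicase genes Mcm7, Mcm5 and Mcm6, 1.86-fold, 1.81-fold and 1.76-fold. Of 17 genes of the sliding clamp, its loaders, RPA and Okazaki fragment processing, 12 fell (median -0.58), among them Rpa3, of the single-strand binding complex, 2.2-fold, Dscc1, of an alternative clamp loader, 2.19-fold, and the clamp loader genes Rfc2, 2.07-fold, and Rfc4, 1.82-fold. Of 14 measured DNA polymerase genes outside bulk replication, which serve repair, lesion bypass, mitochondria and antigen receptor joining, 0 fell and 1 rose (median -0.03). It was Dntt, the terminal transferase of lymphoid precursors, 1.37-fold (limma adjusted p = 0.0489). In GMP its log2 difference was 0.59 and did not pass (adjusted p = 0.628). Without young HSC replicate 4, 2 of this list fell, beside 17.9% of all genes called lower. The number was 2 with the replicate number as a block (19.2%) and 4 with array weights (25.2%). The subunits of RNA polymerase II, which have no role in copying DNA, fell in 8 of 12 cases (median -0.62), for instance Polr2d by 2.23-fold, Polr2g by 2.19-fold, Polr2j by 2.01-fold and Polr2f by 1.93-fold. Of 21 measured proliferation genes 6 fell (median -0.37), such as the S-phase cyclin gene Ccne2, 1.97-fold, the mitotic kinase gene Cdk1, 1.7-fold, Ccnb2, 1.63-fold, and the thymidylate synthase gene Tyms, 1.61-fold. After quantile normalization, with 3.87% of all genes called lower, the numbers that fell were 6 of 19, 7 of 17, 5 of 12 for RNA polymerase II and 3 of 21 for proliferation. They were 7, 6, 2 and 4 without old HSC replicate 1 (1.92% of all genes) and 6, 6, 2 and 7 without old HSC replicate 2 (1.44%). With the interquartile range as a covariate they were 3, 3, 0 and 0 (0.264% of all genes), and without young HSC replicate 3 the clamp group had 7 of 17 (4.09%). The proliferation group had 12 of 21 with array weights and 12 with the replicate block, fits in which 25.2% and 19.2% of all genes were called lower.

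A second comparison asked whether the same genes differ with age in GMP. None of the 10 passed the test there (limma; 0% of all genes passed), and at an unadjusted p under 0.05 the count was also 0 of 10, beside 4.51% of all genes. Log2 differences ran from -0.19 for Pold1 to 0.15 for Prim2, with 6 below 0, beside 51.9% of all genes, and 4 above. Prim1 read 10.23, 10.31 and 10.52 in old GMP and 10.57, 10.45, 10.27 and 10.17 in young GMP. The arrays of both ages were mixed, and the difference was -0.01 ± 0.15 (95% CI -0.33 to 0.30). Gins1 read 9.70, 9.74 and 9.92 in old GMP against 9.93, 9.94, 9.94 and 9.85 in young GMP. Old replicate 3 lay above young replicate 4, and the interval of its difference ran from -0.43 to 0.18 around -0.13. For Pole the difference was 0.04 ± 0.12 (95% CI -0.21 to 0.29). The widest intervals were those of Pold2, from -0.45 to 0.35, and Prim2, from -0.20 to 0.50, so that falls of the size seen in HSC lay outside the interval for Prim1, Gins1, Pole, Pole2, Pola2 and Pold2 while smaller falls did not. Young GMP replicate 4, the young GMP array with the narrowest interquartile range, 2.13, had the lowest value of its group for all 10 genes on the deposited scale. Without it 0 of the 10 passed as well.

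**Figure D4:**
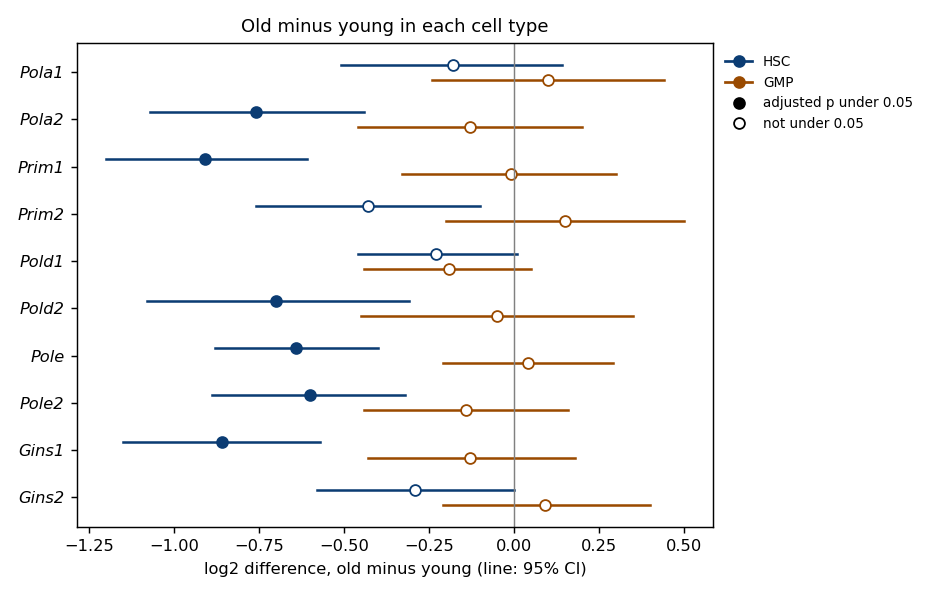
Log2 difference of old minus young (horizontal axis, lines are 95% confidence intervals) for the 10 genes in HSC (dark blue) and GMP (brown); filled points have an adjusted p under 0.05. The HSC points lie between -0.91 and -0.18 with 6 filled, and the GMP points between -0.19 and 0.15 with 0 filled.

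Whether the age difference itself differed between HSC and GMP was tested directly, with all 4 groups. It was below 0 for all 10 genes, beside 47.6% of all genes, and ran from -0.89 ± 0.21 for Prim1 and -0.73 ± 0.20 for Gins1 to -0.03 ± 0.16 for Pold1. None passed after adjustment (limma; 0 of 10, beside 0.0933% of all genes, a share between 0.00518% and 0.995% without single arrays), the smallest adjusted p being 0.146, for Prim1 and Pole. At an unadjusted p under 0.05 there were 7 of 10, beside 11.2% of all genes: Pola2, Prim1, Prim2, Pold2, Pole, Pole2 and Gins1. With arrays weighted by their quality (limma arrayWeights) 6 of the 10 passed, Prim1, Prim2, Pold2, Pole, Pole2 and Gins1, beside 12.5% of all genes in that fit. Without young HSC replicate 4 Prim1 passed (-0.92, adjusted p = 0.0432), beside 0.995% of all genes. A fall in HSC that is larger than that in GMP was therefore not established for any of the genes in the planned fit.

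The third comparison set HSC against GMP. In young mice 9 of the 10 genes were lower in HSC and 0 higher, while 10.9% of all genes were called lower and 13.6% higher. Of the 5472 other genes within the members' range of mean level, 18.2% were called lower. Gins1 differed most, with a log2 difference of -1.23 ± 0.13 or 2.35-fold (n = 5 HSC and 4 GMP arrays; limma adjusted p = 4.09e-07). Its young HSC arrays, from 8.39 to 8.99, lay well below the GMP arrays, from 9.85 to 9.94. Pole2 followed at 1.7-fold, Gins2 at 1.59-fold, Pola1 at 1.57-fold and Prim2 at 1.55-fold. Smaller differences were measured for Pold1, 1.4-fold, Prim1, 1.38-fold, Pola2, 1.33-fold, and Pole, 1.32-fold. Pold2 was the exception, at -0.20 ± 0.17 (95% CI -0.55 to 0.15; adjusted p = 0.434), with HSC values of 8.61 to 9.57 and GMP values of 8.93 to 9.54. Groups were fully apart for 6 of the 10 genes, beside 9.51% of all genes with HSC lower.

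Same-numbered arrays of young HSC and young GMP deviated together. With the replicate number within each age as a block 8 of the 10 genes were lower, beside 15.8% of all genes. Pola2 was lost, at -0.35 ± 0.13 (limma adjusted p = 0.0512). Pola2 was also lost without young GMP replicate 1 (adjusted p = 0.127), 2 (0.093) or 3 (0.0794) and without young HSC replicate 1 (0.0584), 4 (0.0557) or 5 (0.0876), and Prim1 without young GMP replicate 1 (0.0546). Within arrays, Gins1 stood lower against Gins2 in young HSC (-0.57 ± 0.19, SD, n = 5) than in young GMP (0.00 ± 0.20, n = 4), and the ranges, -0.82 to -0.39 and -0.20 to 0.28, were apart. Pole against Pole2 went the other way, 0.23 ± 0.17 in young HSC and -0.13 ± 0.09 in young GMP. Both had a two-sided exact permutation p of 0.0159 and an adjusted p of 0.0794 over the 10 pair comparisons, so neither passed. In the 4 same-numbered pairs of young HSC and GMP arrays, Gins1 against Gins2 was lower in HSC in 4 of 4, by -1.10 to -0.21, and Pole against Pole2 higher in 4 of 4, by 0.03 to 0.49. The two-sided exact sign-flip p was 0.125 for each, the smallest that 4 pairs can give.

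In old mice all 10 genes were lower in HSC than in GMP (13% of all genes were called lower), and the arrays of the groups were apart for all 10, beside 18.4% of all genes with HSC lower. Gins1 again differed most, 3.91-fold (log2 -1.97 ± 0.16; n = 3 and 3; limma adjusted p = 1.88e-08). Prim1 was 2.55-fold lower, Pole2 2.33-fold, Prim2 2.32-fold, Pole 2.12-fold, Gins2 2.07-fold, Pola2 2.06-fold, Pola1 1.9-fold, Pold2 1.8-fold and Pold1 1.44-fold. The median log2 difference of the 10 genes was -1.07 in old and -0.56 in young mice, beside 0.02 and -0.05 over all genes. Over the 5472 other genes within the members' range of mean level it was -0.13 in old and 0.01 in young mice. Of those genes 26.2% were called lower in old mice and 18.2% in young mice. These comparisons share no arrays with each other, but each shares its HSC arrays with the age comparison in HSC; the difference between them is the same quantity as the difference between both age effects, for which 0 of the 10 genes passed.

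**Figure D5:**
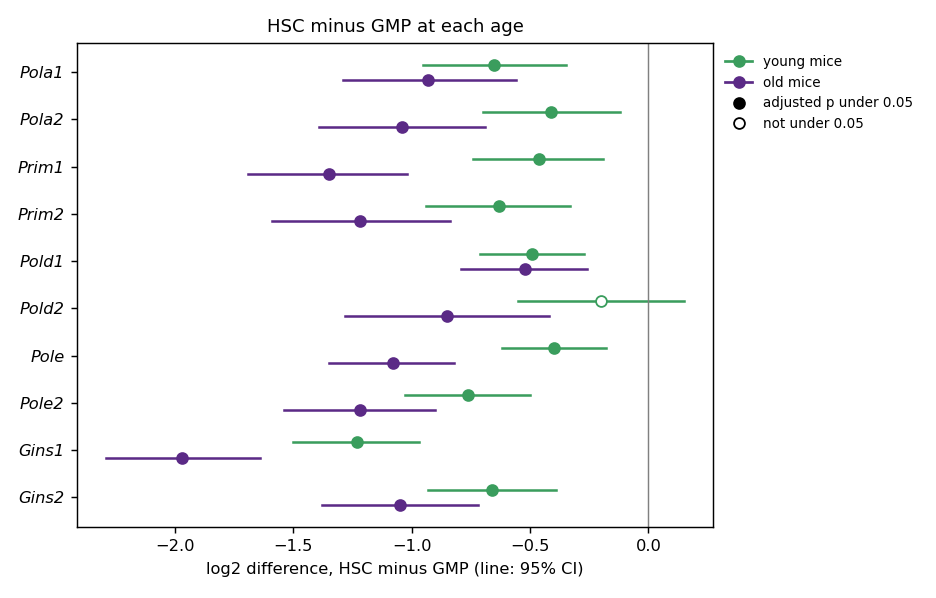
Log2 difference of HSC minus GMP (horizontal axis, lines are 95% confidence intervals) for the 10 genes in young mice (green) and old mice (purple); filled points have an adjusted p under 0.05. All 10 points are filled in old mice, from -1.97 for Gins1 to -0.52 for Pold1, and 9 in young mice, where Pold2 is open at -0.20.

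Other lists differed between HSC and GMP to unequal extents. Of all genes, 10.9% were called lower and 13.6% higher in HSC in young mice, and 13% lower in old mice. Within the members' range of mean level, 18.2% of the other genes were called lower in young mice and 26.2% in old mice. Of the proliferation genes 19 of 21 were lower in HSC in young mice, for example Rrm2, a subunit of ribonucleotide reductase, 3.58-fold, the spindle checkpoint kinase gene Bub1, 3.24-fold, the repressor gene E2f8, 3.11-fold, and the mitotic kinase gene Aurkb, 2.62-fold. Of the helicase and fork assembly genes 17 of 19 were lower, among them Ticrr, needed to load Cdc45, 2.4-fold, Cdc45 itself, 2.29-fold, Mcm10, 2.15-fold, and Clspn, 2-fold. For the clamp, RPA and Okazaki group it was 10 of 17. RNA polymerase II subunits, of which 8 of 12 fell with age in HSC, were called lower in young HSC against young GMP in 1 of 12 cases (Polr2k, 1.43-fold; median -0.10), and in old mice in 6 of 12, a number that was 2 without old HSC replicate 1 or 2 or old GMP replicate 3. Of the other DNA polymerases 4 were lower and 2 higher in young HSC: Polq, of end joining, was 2.09-fold lower, Rev3l, the catalytic subunit of polymerase zeta, 1.43-fold lower, and Primpol, a primase-polymerase that restarts forks, and Poli, of lesion bypass, were 1.8-fold and 1.45-fold higher. The number of these called lower was 1 or 2 without any single young GMP array of replicates 1 to 3 and without young HSC replicate 1 or 5.

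As a description of how alike the genes were, each was correlated with the mean of the other 9 over the 15 arrays, which fall into HSC and GMP and share the array spread noted above. Pearson's r was 0.99 for Pole2, 0.98 for Gins1, 0.96 for Pole and 0.95 for Prim1, and lowest for Pola1, 0.80, and Pold2, 0.79. Over the 8 HSC arrays alone Pole2 and Gins1 stayed at 0.98 and 0.97, while Pola1 stood at 0.21. Outside the 10 genes, the values most like their mean over the 15 arrays were those of Man2b1, a lysosomal mannosidase gene (r = 0.986), Mcm5 and Mcm3 of the MCM ring (0.985 and 0.977), Mtbp, which takes part in loading Cdc45 (0.985), Fignl1 (0.977) and Cks1b, a partner of cyclin-dependent kinases (0.977).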

How the data were processed

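The deposited values are log2 expression per probe set, with 0 missing; RMA, affy and limma are listed, without versions or roles, per the submitters' processing notes, and the log2 scale was read from the values. RNA was amplified with a Nugen kit, per the labels' protocols. Centring, filters and build are not given in the sources used here. Of 23309 probe sets, 20728 had 1 symbol, 1174 several and 1407 none in the platform annotation; genes were updated by Entrez ID (20685 matched, 0 symbols changed), and the brightest probe set was kept for each of 19296 genes. limma 3.58.1 in R 4.3.3 fitted a mean per group to all 15 arrays with default empirical Bayes moderation and Benjamini-Hochberg adjustment over all genes; pair shifts used scipy 1.17.1. Simulated data held 19296 genes, 200 of them changed, with noise drawn independently for each gene and array. There the comparison of old with young HSC recovered 94.5% of changes of 1 log2 and 16.5% of those of 0.5. In the real data 11.5% of all genes were called in this comparison, so these rates are not those of the tests reported. Arrays have no read depth, and their number limits the precision. Deviations of same-numbered young HSC and GMP arrays correlated at 0.16 to 0.52, those of old arrays at 0.05, 0.23 and 0.42, and those for age in HSC at -0.24 to 0.15. Since every pair had to exceed 0.1, numbers were taken to pair the young cell types only. That limit was not tested, and the old arrays missed it by a single value, 0.05. The members, lists and tests were chosen with earlier results of these data known; all members were described, and of each other list the called genes with the largest differences, up to 4. Alternatives covered normalization, probe choice, dim genes, array weights, covariates, blocks and each array.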

Additional observations from a re-analysis of the deposited data

Results flagged for a closer look

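On young GMP replicate 4, Pold1 read 8.47 log2 where the other young GMP arrays read 8.70 to 8.73, and Pold2 read 8.93 where the others read 9.47 to 9.54. The gap to the nearest array took 0.865 and 0.891 of the group's range. Of 20 groups of values checked, these 2 stood apart in this way, and chance alone flags about 1 in 20. On the deposited scale the same array was lowest of its group for all 10 genes. It had the narrowest interquartile range of the young GMP arrays, 2.13 log2. After quantile normalization it read 8.59 for Pold1, where the others read 8.59 to 8.69, and 9.04 for Pold2, where they read 9.31 to 9.43. It then stayed lowest for Pola2, Prim2, Pold2 and Gins2 but not for Pola1, Prim1, Pole, Pole2 and Gins1. The part of the spread in these values was not tested further.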

How the results depend on the processing

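Each comparison was repeated under up to 27 other settings. In old HSC 6 genes passed as reported; 5 did after quantile normalization, 9 with array weights, 8 with the replicate number as a block and 1 with the interquartile range as a covariate, beside 3.87%, 25.2%, 19.2% and 0.264% of all genes called lower, and 4 to 7 without single arrays. Of the direct comparison of the age effects, 0 passed as reported, 6 with array weights (8.76% of all genes lower), 0 with the replicate block and 0 to 1 without single arrays. For young HSC against GMP 9 passed with the replicate block and for old 10, beside 14.2% and 15.4% of all genes called lower. With the block within each age it was 8 and 10, beside 15.8% and 16.2%. For age in GMP 0 passed with the replicate block, as under every setting. Apart from the calls named above, the block added Prim2 (limma adjusted p = 0.0338) and Gins2 (0.0266) for age in HSC. There the numbers were not taken to pair the arrays. Values near 0 changed sign. Under quantile normalization Pola1 for age in HSC stood at 0.13, Prim1 and Pold2 for age in GMP at 0.03 and 0.01, Pold1 for the difference of age effects at 0.02 and Pole against Pole2 for age in HSC at 0.02. With the interquartile range covariate Prim1, Pold2 and Pold1 stood at 0.02, 0.03 and 0.05 in the same comparisons, and with Xist Prim1 stood at 0.04. Without replicate 4 of both young groups Gins2 for age in GMP was -0.02 and Pold1 for the difference of age effects 0.03. Leaving out single arrays gave -0.10 to 0.05 for Prim1, -0.19 to 0.07 for Pold2 and -0.02 to 0.17 for Gins2 for age in GMP, -0.10 to 0.05 for Pold1 in the difference, and -0.13 to 0.08 for Pole against Pole2. The cause of these changes was not tested. With 3 old arrays per cell type, most differences near 0.5 log2 were not recovered in simulated data with 200 changed genes. What share the real comparisons would recover is not known from this.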
